A study of Mus musculus with 5 samples.

Results

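Plasmacytoid dendritic cells (pDCs) were the cells to which the authors gave the class pDCs in their deposited table of single lung cells. There were 153 of them among the 23852 cells of the 5 libraries. Of those cells, 22118 carried a class other than doublet or unknown, and pDCs made up 0.692% of these annotated cells. They were the smallest of 12 classes in 3 libraries, and in the other 2 libraries cancer cells alone were fewer.

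Plasmacytoid dendritic cells are bone marrow derived immune cells that sense viral or self nucleic acids through the endosomal receptors TLR7 and TLR9 and can release large amounts of type I interferon. Their identity depends on the transcription factor TCF4, also called E2-2. In tumours and in lungs with metastases they have been linked both to antiviral-like immune activation and to tolerance, and in healthy lung they are a rare population.

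Lungs of female BALB/c mice were profiled by 5′ single-cell RNA sequencing. From 6 weeks of age the mice received intravenous injections of 200 µL, 3 times per week for 3 weeks, of either tumor-secreted factors (TSF) or control medium (CM). TSF was medium conditioned by resected mammary tumor pieces and pooled from 3 tumors, and CM was the same medium kept without tumor tissue. All mice then received 25000 4T1 cells, a BALB/c mammary carcinoma line, made to express the surface marker CD90.1 and given into a vein, so that cancer cells reached the lung without leaving a primary tumor. Lungs were taken at day 11 (age 10 weeks) or at day 16 (age 11 weeks) after the cancer cells, and no mice without cancer cells were analysed here. The groups were CM at day 11, TSF at day 11 (libraries a and b), CM at day 16 and TSF at day 16.

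Within a group, dissociated lung cells from 3 mice were mixed before library preparation. The labels call TSF libraries a and b of day 11 replicates and do not say whether they came from separate pools of mice. In TSF at day 11 the class counts of a and b differed about as much as sampling noise alone gives (chi-square of 11.0 on 11 degrees of freedom). Each other pair of libraries had at least 50.4. These values count cells and not mice, so they are no test between groups. The agreement of a and b does not show that they are 1 sample. They were counted as 1 because separate mice are not stated, with the mean of their values, and both values are given throughout. Every group was thus 1 sample, so no test between groups was made and no p-value is given for a difference between them. Intervals are at the 95% level and cover counting error only, not the spread between mice. The libraries held 3835 to 5580 cells and 13240822 to 21451787 UMIs (unique molecular identifiers, the count of captured RNA molecules). Day and library cannot be told apart, nor can treatment and library, since each group was a pool of its own.

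The label pDC was set by the authors from marker genes of clusters. Levels of Siglech, Bst2 and Tcf4 in single immune cells were not analysed here, so the label was not checked against expression. Siglech encodes a sialic acid binding receptor used as a mouse pDC marker, Bst2 encodes the interferon-inducible membrane protein tetherin, which carries the pDC antigen PDCA-1, and Tcf4 encodes the pDC transcription factor. All 18 listed pDC markers were in the gene table, and 12 of them were among the 1000 variable genes of 23771 from which the authors built their embedding. Siglech and Bst2 were among those 12. Tcf4, Irf7, Tlr7, Tlr9, Bcl11a and Pacsin1 were not, so the embedding did not use them. Irf7 encodes a transcription factor that drives type I interferon genes.

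The 1 readout of these genes at hand was in cancer cells of day 16. As a background there, 13 markers of B, T, NK, plasma and myeloid cells had a UMI in at most 3 of 139 cancer cells of the TSF library (2.16%) and in at most 1 of 29 of the CM library (3.45%). The plasma cell marker Sdc1 was set aside after its values were seen, since epithelial tumor cells are known to express it, and it had a UMI in 77.0% and 55.2%. Siglech (GRCm38 chr7:55768178-55778925, plus strand) had no UMI in 139 cancer cells of the TSF library, which allows a share of cells with a UMI of up to 2.16%, and none in 29 cancer cells of the CM library, which allows up to 10.3%. These limits concern captured UMIs and not whether a cell expressed the gene. Bst2 (GRCm38 chr8:71534255-71537456, minus strand) had a UMI in 128 of 139 TSF cancer cells and in 29 of 29 CM cancer cells. The authors' mean for Bst2 was 3.20 CP10k in TSF, that is, UMIs out of each 10000 that a cell had, and 12.4 CP10k in CM. Tcf4 had a UMI in 129 of 139 cells (92.8%) and in 23 of 29 cells (79.3%), at 2.29 and 2.11 CP10k. The shares of cells with a UMI of Bst2 and Tcf4 were above that background in both libraries. In all, 8 of the 18 markers had no UMI in a cancer cell of either library. Besides Siglech these were Spib, Ccr9, Cd209d, Klk1, Ly6d and the nucleic acid receptor genes Tlr7 and Tlr9. Of the other regulators of the pDC program, Irf8 had a UMI in 28.1% of TSF cancer cells (20.8% to 36.3%) and in 62.1% of CM cancer cells. Irf7 had one in 27.3% (20.1% to 35.5%) and in 44.8% (26.4% to 64.3%), with intervals that overlapped. The transcription factor genes Runx2 and Bcl11a had the higher share in TSF, also with intervals that overlapped. Runx2 was at 45.3% in TSF (36.9% to 54.0%) and 27.6% in CM (12.7% to 47.2%), with 0.274 and 0.230 CP10k. Bcl11a was at 19.4% (13.2% to 27.0%) and 6.90% (0.846% to 22.8%). Ly6c2 was seen in 20 TSF and 2 CM cancer cells, Ptprc, which encodes the leukocyte antigen CD45, in 4 and 0, Pacsin1 in 1 and 0, and Cox6a2 in 0 and 1. These are values of 2 libraries with a median of 26615 and 27679 UMIs per cancer cell.

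The share of pDCs among annotated cells answers whether prior exposure to TSF, or the time after cancer cell injection, went with more or fewer of these cells in the lung. At day 11 it was 0.749% in CM (28 of 3738 cells, 0.498% to 1.08%). In TSF it was 0.841% in library a (43 of 5113 cells, 0.609% to 1.13%) and 0.791% in library b (38 of 4804 cells, 0.560% to 1.08%). At day 16 it was 0.449% in CM (16 of 3567 cells, 0.257% to 0.727%) and 0.572% in TSF (28 of 4896 cells, 0.380% to 0.825%). All 3 libraries of day 11 had a higher share than both libraries of day 16. The day 11 and day 16 intervals overlapped.

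Between treatments the pDC share differed by less than counting error at both days. The ratio of TSF to CM was 1.09 at day 11 (0.702 to 1.74, with 0.816% as the TSF mean) and 1.27 at day 16 (0.666 to 2.52). Libraries a and b of TSF themselves differed by a ratio of 1.06 (0.671 to 1.69). With so few cells these intervals reached from 0.702 to 1.74 at day 11 and from 0.666 to 2.52 at day 16, so a difference of that size was not detectable at this depth. Between days the ratio of day 16 to day 11 was 0.599 in CM (0.303 to 1.15) and 0.701 in TSF (0.439 to 1.09). Both ratios were under 1 and both intervals included 1.

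**Figure D1:**
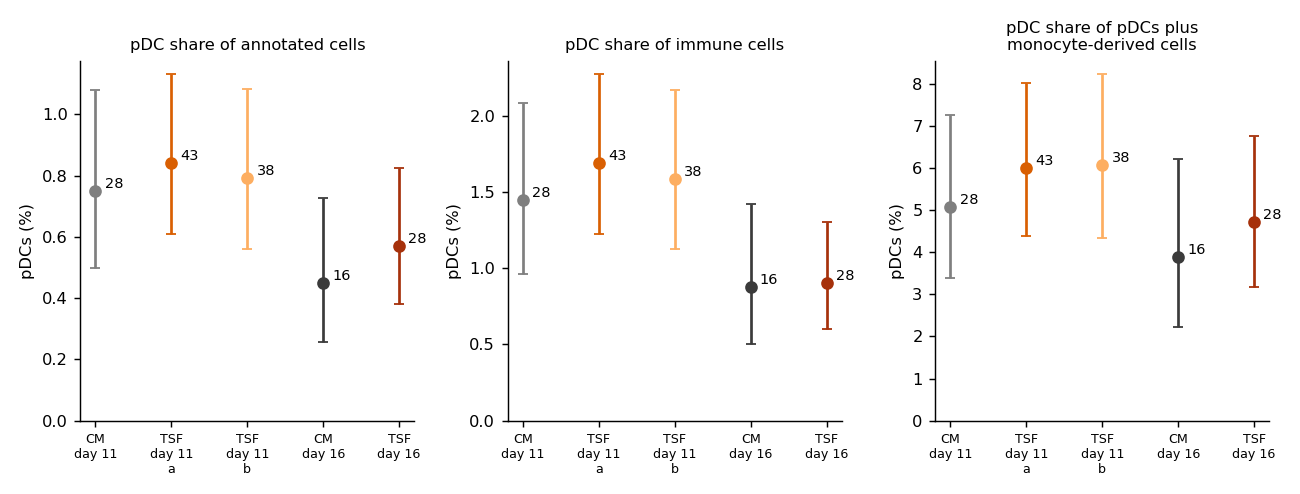
Share of pDCs (percent, vertical axis) in each of the 5 libraries (horizontal axis), by denominator. Numbers beside the points count pDCs. Points are single libraries and bars are exact 95% binomial intervals, which cover counting error only. Among annotated cells the day 11 libraries lay between 0.749% and 0.841% and the day 16 libraries at 0.449% and 0.572%, with overlapping intervals.

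A share depends on what else was captured. Granulocytes were 4.47%, 4.58% and 4.93% of annotated cells in CM and in TSF a and b at day 11, 6.00% in CM at day 16 and 29.1% in TSF at day 16, so the TSF library of day 16 stood apart in the cells that surround its pDCs. Without granulocytes in the denominator, the pDC share was 0.784%, 0.881% and 0.832% at day 11, 0.477% in CM at day 16 and 0.807% in TSF at day 16. The ratio of day 16 to day 11 in TSF then moved to 0.942 (0.589 to 1.46), while in CM it was 0.609 (0.308 to 1.16). The ratio of TSF to CM at day 16 moved to 1.69 (0.884 to 3.34), an interval that still included 1. Among immune cells alone the same ratio was 1.03 (0.538 to 2.04), and the fall of the TSF share from the day 11 mean to day 16 had an interval apart from 1 (0.552, 0.345 to 0.856). In CM the corresponding ratio was 0.607 (0.307 to 1.16). The ratio between days in TSF was thus nearest to 1 when granulocytes were left out and farthest from 1 among immune cells, which include them. The part played by granulocyte numbers was not tested.

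Set against lymphocytes or monocyte-derived cells, pDCs were rarest in CM at day 16, where 16 pDCs were counted. Among all immune cells, CM and TSF of day 16 were nearly equal (0.878% and 0.904%). The counts per pDC carry no interval. There was 1 pDC for 43.5 lymphocytes (T, B and NK cells) in CM at day 11, for 37.0 in TSF a, for 40.4 in TSF b, for 38.6 in TSF at day 16 and for 74.75 in CM at day 16. Of monocyte-derived cells, the class that holds monocytes, macrophages and the authors' type M1 Macro/DC, there were 15.5 to 20.2 per pDC in the other 4 libraries and 24.8 in CM at day 16. As a share of pDCs and monocyte-derived cells together, pDCs were 5.07%, 6.01% and 6.07% at day 11, 3.87% in CM at day 16 and 4.72% in TSF at day 16. None of the ratios on that base had an interval apart from 1. Of all UMIs in annotated cells, pDCs held 0.862%, 0.897% and 0.958% at day 11, 0.477% in CM at day 16 and 0.794% in TSF at day 16.

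The pDCs were well covered for leukocytes. Their median UMI count was 3513.5 in CM at day 11 (quartiles 3199.75 to 3857.25), 3200 in TSF a (2794 to 3631.5) and 3853.5 in TSF b (3007.25 to 4388.25). At day 16 it was 3790 in CM (2956.5 to 5426.25) and 4066.5 in TSF (3527.25 to 4972.75). The quartile ranges of all 5 libraries overlapped. The ratio of medians between TSF and CM was 1.07 at day 16 and 1.00 at day 11. Median genes per pDC were 1516.5, 1366 and 1542.5 at day 11, 1771 in CM at day 16 and 1737 in TSF at day 16. Both day 16 medians were above the 3 of day 11. The same was seen in every other immune cell type, so it was not particular to pDCs. Alveolar macrophages, for example, had 1390, 1273 and 1345 genes at day 11, and 2015.5 in CM and 1772.5 in TSF at day 16. Among pDCs of 3000 to 4500 UMIs, where depth was alike, the medians were 1555, 1502 and 1547 genes at day 11, 1722 in CM at day 16 from 5 cells and 1604 in TSF at day 16 from 17 cells. Alveolar macrophages in that band also rose, from 1519.5, 1487.5 and 1527.5 genes to 1597 in CM and 1622 in TSF. B cells in the band rose as well, from 1262, 1230 and 1239 genes to 1417 in CM and 1297.5 in TSF. Monocytes, M2 Macro and NK cells also had both day 16 medians above the 3 of day 11. T cells of TSF at day 16 (1171) were not above all those of day 11 (1129, 1202.5 and 1221). M1 Macro/DC of TSF at day 16 (1321, from 5 cells) was below that of CM at day 11 (1370.5).

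Single pDCs ranged from 807 UMIs, close to the lower limit of 800 that all deposited cells met, to 39490 UMIs. The highest was in TSF at day 16 with 5767 genes and 1.84% mitochondrial UMIs, and the next highest pDC of that library had 7991 UMIs. This cell lifted the mean UMI count of its library to 5569, which was 4313 without it. At least 2000 UMIs were found in 25 of 28 pDCs of CM at day 11, 40 of 43 of TSF a, 35 of 38 of TSF b, 13 of 16 of CM at day 16 and 28 of 28 of TSF at day 16. When all annotated cells were held to at least 2000 UMIs, the CM ratio of day 16 to day 11 was 0.470 (0.221 to 0.953). This was the single setting at which the CM interval did not include 1. The limit also cut the denominator, and CM cells of all classes were deeper at day 16 (median of 2721 UMIs) than at day 11 (2337).

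**Figure D2:**
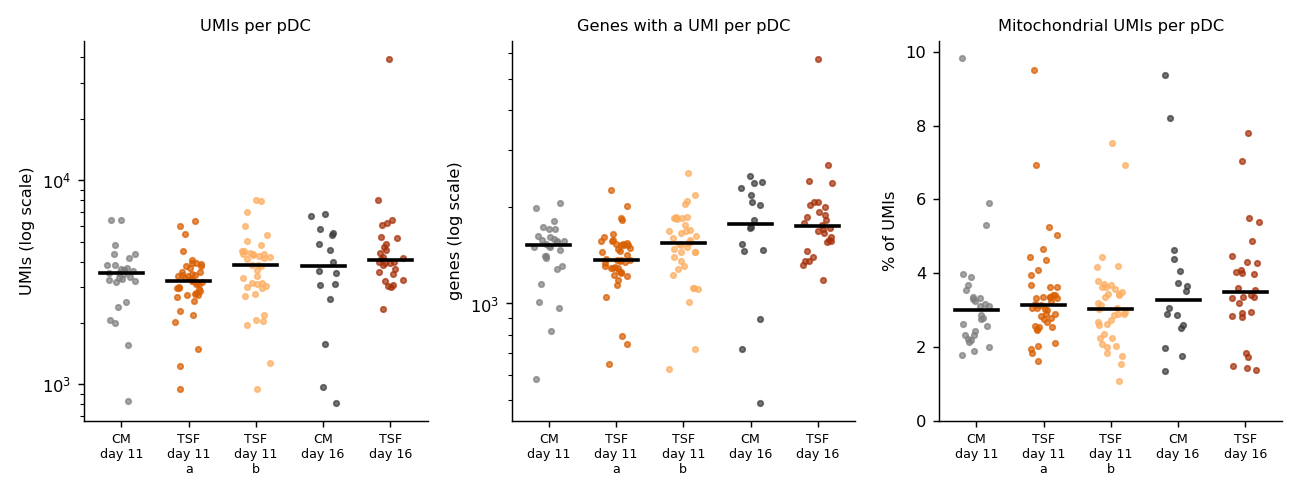
Values of single pDCs by library (horizontal axis), with UMIs per cell and genes per cell (both on log axes) and the percent of mitochondrial UMIs on the vertical axes. Dots are cells and the line in each column is the median. The 5 medians of UMIs lay between 3200 and 4066.5, and a single pDC of the TSF library at day 16 reached 39490 UMIs.

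Compared with the other 10 immune cell types, pDCs were deep cells with a high mitochondrial share. Their median UMI count was 1.75 to 2.39 times that of lymphocytes of the same library. It ranked between the third and the fifth of 11 types, behind M1 Macro/DC in all 5 libraries, which the authors named as M1 macrophages and dendritic cells together. The median mitochondrial share of pDCs was 2.99% in CM at day 11, 3.14% in TSF a, 3.03% in TSF b, 3.28% in CM at day 16 and 3.48% in TSF at day 16. It ranked first of 11 types in every library. The next type was alveolar macrophages at 2.78% in CM at day 11, and B cells in the other libraries at 2.53%, 2.66%, 2.37% and 3.12%.

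The first rank in mitochondrial share did not hold at matched depth. Among cells of 3000 to 4500 UMIs and types with at least 5 such cells, B cells were above pDCs in 4 of 5 libraries. At day 11 B cells were at 3.83%, 3.37% and 3.25%, against 3.12%, 3.10% and 3.03% in pDCs. At day 16 in TSF, M1 Macro/DC was at 4.43% from 5 cells, B cells at 3.82% and pDCs at 3.42%. In CM at day 16 the pDCs were first at 4.05% from 5 cells. In the same band pDCs had the most genes per cell of all types in 4 of 5 libraries and were second to alveolar macrophages in TSF at day 16, with 1604 against 1622 genes. The margin over alveolar macrophages at day 11 was small (1555 against 1519.5 in CM). These ranks describe pooled lungs and carry no test.

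**Figure D3:**
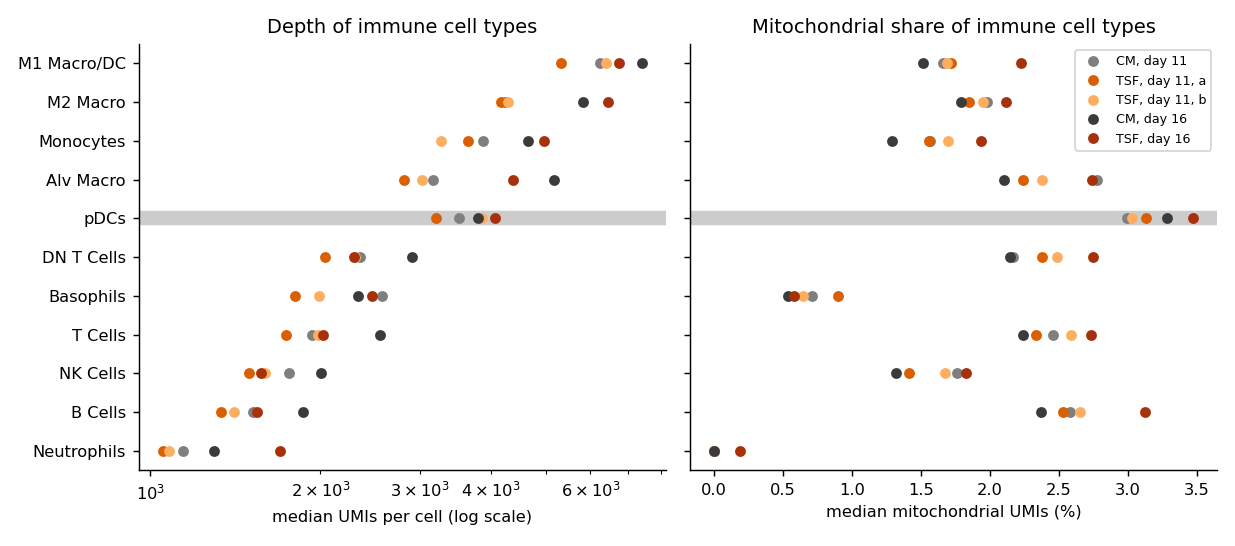
Median UMIs per cell (left, log axis) and median percent of mitochondrial UMIs (right) of the 11 immune cell types (vertical axis). Each point is 1 library. The pDCs lay to the right in the mitochondrial panel, at 2.99% to 3.48%, and between the third and the fifth rank in UMIs.

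The authors annotated clusters that were drawn in the plane of their embedding, so that pDCs lie together there follows from how they were labelled and is no finding. Of the 15 nearest neighbours of each pDC, 94.9% on average were pDCs, 1.70% were monocytes and 1.48% were M1 Macro/DC cells. All neighbours were pDCs for 125 of 153 cells, and under 50% were pDCs for 7 cells. The authors' first clustering put pDCs in 4 clusters. Cluster 127 held 83 pDCs among 90 cells, the others being doublets, and cluster 138 held 63 pDCs among 65 cells. The other 7 pDCs sat in clusters of mostly monocyte-derived cells, 3 in cluster 42 (244 cells) and 4 in cluster 46 (209 cells).

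These 7 pDCs differed from the rest in depth and mitochondrial share. Their median was 6333 UMIs (3917 to 7991), against 3499 in the other 146, and their median mitochondrial share was 1.76% against 3.18%. They came from 4 libraries. The part of doublets in this was not tested. Because clusters were drawn on the expression of the same cells, these differences are a description.

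**Figure D4:**
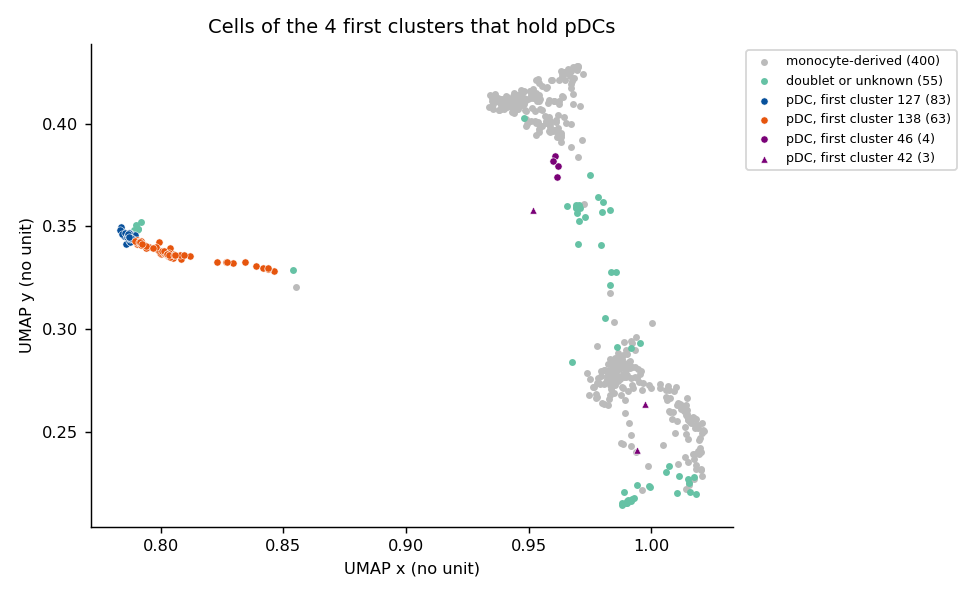
Position of cells in the authors' embedding (UMAP x and UMAP y, no unit) for the first clusters that hold pDCs, coloured by class and, for pDCs, by first cluster (triangles mark cluster 42). The pDCs form 1 group, apart from 7 cells among the monocyte-derived cells.

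Some of the sub-clusters of pDCs differed in share between days. In a second clustering the authors divided cells more finely, and the 153 pDCs fell into 11 sub-clusters that held no cell of another class, with 4 to 38 cells each. Sub-cluster 31, with 38 cells, was largely a group of day 11. It took 6 of 28 pDCs in CM at day 11 (21.4%), 20 of 43 in TSF a (46.5%, 31.2% to 62.3%) and 11 of 38 in TSF b (28.9%, 15.4% to 45.9%). At day 16 it took 0 of 16 in CM, which allows a share of up to 18.75%, and 1 of 28 in TSF (3.57%).

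Sub-cluster 80, with 20 cells, had the same pattern. It took 7 of 28 (25%), 6 of 43 (14.0%) and 7 of 38 (18.4%) at day 11. It took 0 of 16 in CM and 0 of 28 in TSF at day 16, the latter allowing up to 10.7%. Sub-cluster 98, with 17 cells, took 5 (17.9%), 6 (14.0%) and 4 (10.5%) pDCs at day 11. It took none in CM at day 16 and 2 in TSF at day 16 (7.14%, 0.877% to 23.5%). In TSF the day 16 interval overlapped those of day 11 (5.30% to 27.9% in a and 2.94% to 24.8% in b). Sub-cluster 43, with 25 cells, ran the other way. It took 2 of 28 in CM at day 11 (7.14%, 0.877% to 23.5%), 0 of 43 in TSF a (up to 6.98%) and 3 of 38 in TSF b (7.89%, 1.66% to 21.4%). At day 16 it took 8 of 16 in CM (50%, 24.7% to 75.3%) and 12 of 28 in TSF (42.9%, 24.5% to 62.8%).

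Sub-clusters 31, 80 and 98 together, grouped after their values were seen, held 18 of 28 pDCs in CM at day 11 (64.3%, 44.1% to 81.4%), 32 of 43 in TSF a (74.4%, 58.8% to 86.5%) and 22 of 38 in TSF b (57.9%, 40.8% to 73.7%). They held 0 of 16 in CM at day 16 (0% to 20.6%) and 3 of 28 in TSF at day 16 (10.7%, 2.27% to 28.2%). The intervals of the 3 libraries of day 11 did not overlap those of the 2 libraries of day 16. For sub-cluster 43 the interval of each day 16 library lay above that of each day 11 library. Within each day, the intervals of TSF and CM overlapped for both sets. Both sets were picked by these same values, so the separation between days is a description. All other sub-clusters together held 28.6% of pDCs in CM, 25.6% in TSF a and 34.2% in TSF b at day 11. At day 16 they held 50% in CM and 46.4% in TSF, so a large part of the pDCs lay outside both sets.

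The observed shares of all 3 pDC sub-clusters with at least 20 cells (31, 43 and 80) differed at least 4-fold between days, in the same direction in both treatments, where the same rule called 21.2% of 434 sub-clusters of all cell types. For sub-clusters 31 and 80 this rests on groups with 0 cells. With such groups set at the limit that 0 cells allow, the rule was met by sub-cluster 43 alone (1 of 3), against 9.68% over all types. With at least 10 cells and the observed shares it was met by 3 of 7 pDC sub-clusters, against 20.9%. Sub-cluster 80 had all of its 20 cells at day 11. Sub-cluster 31 had 0 cells in CM and 1 in TSF at day 16. Sub-cluster 43 had 2 cells in CM, 0 in TSF a and 3 in TSF b at day 11. All 3 thus reached the minimum of cells only through the day at which they were high, and the limits were chosen after values were seen. These counts are therefore a description and support nothing about pDCs as a class. Between TSF and CM, none of the 3 differed at least 4-fold in the same direction at both days, against 2.07% of all sub-clusters. By day, among other immune types, the observed shares met the rule in 0 of 8 sub-clusters of M1 Macro/DC, 3 of 19 of monocytes, 15 of 28 of alveolar macrophages, 20 of 68 of T cells and 1 of 28 of B cells.

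At matched depth the differences kept their direction, but few cells were left. Median UMIs were 3311 in sub-cluster 31, 3343.5 in sub-cluster 80, 3200 in sub-cluster 98 and 3970 in sub-cluster 43. Among pDCs of 3000 to 4500 UMIs, sub-clusters 31, 80 and 98 together held 12 of 19 in CM at day 11, 19 of 24 in TSF a, 11 of 21 in TSF b, 0 of 5 in CM at day 16 and 2 of 17 in TSF at day 16. Sub-cluster 43 held 1 of 19, 0 of 24 and 3 of 21 at day 11, and 2 of 5 and 8 of 17 at day 16. The separation of intervals between days was then lost in 3 of 4 comparisons. The difference of day 16 minus day 11 for sub-cluster 43 was 34.7 percentage points in CM (-20.8 to 85.2, from the bounds of both shares) and 39.9 in TSF (-2.31 to 70.7). For sub-clusters 31, 80 and 98 it was -63.2 points in CM (-83.7 to 13.8) and -54.0 in TSF (-82.1 to -7.37). The TSF intervals used the mean of the bounds of a and b at day 11. Taken alone, the share of sub-clusters 31, 80 and 98 in library b (29.8% to 74.3%) overlapped that of TSF at day 16 (1.46% to 36.4%). The clustering was made on all merged libraries, which also included 2 libraries not used here. Which genes set these sub-clusters apart was not analysed here, and no name is given to them.

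**Figure D5:**
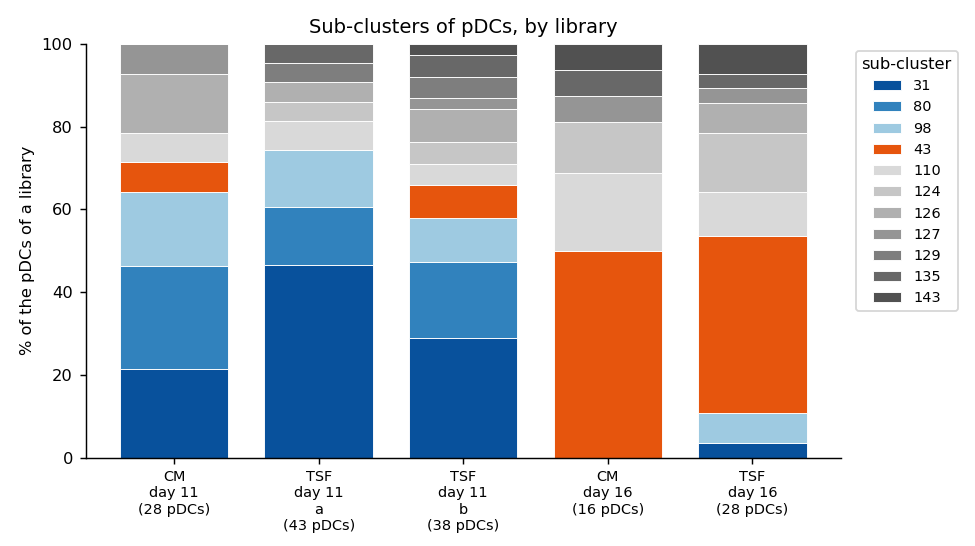
Percent of each library's pDCs (vertical axis) in each sub-cluster (colours) for the 5 libraries (horizontal axis). Sub-clusters 31, 80 and 98 together made up 57.9% to 74.4% of pDCs at day 11 and 0% and 10.7% at day 16, and sub-cluster 43 made up 50% and 42.9% at day 16.

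The first clustering differed between days in the same direction, with intervals that mostly overlapped. Cluster 127 held 16 of 28 pDCs of CM at day 11 (57.1%, 37.2% to 75.5%), 31 of 43 of TSF a (72.1%, 56.3% to 84.7%) and 23 of 38 of TSF b (60.5%, 43.4% to 76.0%). At day 16 it held 5 of 16 of CM (31.25%, 11.0% to 58.7%) and 8 of 28 of TSF (28.6%, 13.2% to 48.7%). Cluster 138 held 42.9% in CM (24.5% to 62.8%), 23.3% in TSF a (11.8% to 38.6%) and 36.8% in TSF b (21.8% to 54.0%) at day 11, and 62.5% in CM (35.4% to 84.8%) and 60.7% in TSF (40.6% to 78.5%) at day 16. Within a treatment, TSF a was the 1 library of day 11 whose intervals lay apart from those of day 16, for both clusters. The first and second clusterings came from the same cells and are not independent of each other.

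Cell barcodes were compared between libraries, since barcodes in common can mark cells that were counted in more than 1 library. Of the 23852 cells, 586 had a barcode also found in another library. Barcodes can also match by chance, and the number of such matches was not computed. Whether any of the 586 were cells counted again was not tested. There were 2 pDCs among them, and no pDC had its barcode in common with a pDC of another library.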

How the data were processed

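Lung cells of 5 libraries were analysed. The authors mapped 5′ 10x reads with Cell Ranger to mm10 (GRCm38) with an added CD90.1 sequence, removed ambient RNA from the UMI counts with their own version of SoupX, and merged and clustered the cells. The submitters' processing notes also name Seurat 4.1.0. They assigned classes by hand and marked doublets from clusters. The deposited cell table gives UMI counts and genes per cell after that correction, mitochondrial UMIs as a percent, and embedding coordinates, which are a score without unit. The deposited cells had at least 800 UMIs, 202 genes and at most 9.99% mitochondrial UMIs, and the UMI limit can set the shares of cell types that hold little RNA. The deposited table of day 16 cancer cells gives the mean CP10k, a signal per library, and how many cells, also as a percent, had a UMI of each gene. Its fold changes, p-values and ranking scores, and a table of gene set scores, are the authors' own comparisons and were not used. Cells of 2 further libraries in the cell table, which match no sample of the series labels, were not used. A matrix of single cells was not analysed here.

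Cells were grouped by the labels, and annotated cells exclude doublets and unknown cells. Shares have exact Clopper-Pearson intervals and ratios have exact conditional intervals, for TSF at day 11 from the pooled counts of a and b. An upper limit for 0 cells is 3 counts of the total. Sub-cluster shares were of the cells of 1 type, with at least 20 cells and a 4-fold limit. Gene positions came from GENCODE M21 on GRCm38. Computation used scipy 1.17.1, scikit-learn 1.9.0, pandas 2.3.3, numpy 2.4.6 and matplotlib 3.10.9 in Python 3.11.15, and the interval and sub-cluster code was tested on simulated data. The simulated sub-cluster changes were larger than 4-fold and in the larger cell types only, so they do not cover calls at the size of pDCs. The pDCs, marker lists and measures were chosen with earlier results of these data known. The sub-cluster groups, the 4-fold and 20-cell limits and the band of 3000 to 4500 UMIs were chosen after values were seen. Named genes were the 18 fixed pDC markers and a fixed list of ligands of pDC receptors, of which 1 is not reported here, and markers of other cell types gave a background. Alternatives covered denominators, UMI and mitochondrial limits, first clusters, and leaving out TSF library a or b.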

Additional observations from a re-analysis of the deposited data

Results flagged for a closer look

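The TSF minus CM difference in the share of pDCs in the authors' first cluster 127 changed sign between days. It was picked by a search for such changes of sign. At day 11 the share was higher in TSF than in CM, by 15.0 percentage points in library a and 3.38 points in library b. At day 16 the share was lower in TSF by 2.68 points (28.6% of 28 pDCs against 31.25% of 16). The day 16 intervals overlapped widely (13.2% to 48.7% in TSF and 11.0% to 58.7% in CM). The difference of the TSF minus CM differences, day 16 minus day 11, was -11.8 points. This difference between days was not tested, as each group was 1 sample.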

How the results depend on the processing

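Of the values recomputed under other settings, 70 stayed within their counting error or within 1.5 times and 6 moved. The intervals were wide, 0.666 to 2.52 for the share ratio of TSF to CM at day 16, so staying within them shows little. No value whose interval lay apart from no difference changed direction. Only the sub-cluster differences between days, chosen after values were seen, had such an interval. The 6 that moved came from the rule, chosen after values were seen, for calling a sub-cluster changed between days. The percent of pDC sub-clusters called was 42.9% (3 of 7) with at least 10 cells, and 66.7% (2 of 3) at 8-fold. Over all types it was 43.3% at 2-fold and 12.2% at 8-fold. With groups of 0 cells at their limit it was 33.3% for pDCs (1 of 3) and 9.68% over all types. The ratio of pDC shares between TSF and CM ranged from 1.03 to 1.79 at day 16 and from 1.05 to 1.20 at day 11. The ratio of day 16 to day 11 ranged from 0.470 to 0.764 in CM and from 0.552 to 0.942 in TSF, and in each treatment 1 setting gave an interval apart from 1. The ratio of median UMIs between TSF and CM changed direction, being under 1 in 3 of 5 settings at day 16 (0.889 to 1.24) and in 2 of 7 at day 11 (0.911 to 1.12, the lowest without TSF library b). Without TSF library a or without b, the rise of sub-cluster 43 in TSF was 35.0 or 42.9 percentage points. In CM its rise with at least 2000 UMIs was 42.2 points, with an interval that reached below 0 (-1.13 to 74.8). No paired analysis was possible because each group was 1 sample and no test was made. Depth of 16 to 43 pDCs per library limits every value.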

Other observations

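Ligands of receptors that pDCs are known to carry were read in the cancer cells of day 16, where 11 of 12 listed genes were in the deposited table and Cxcl11 was not analysed here. Cxcl10, an interferon-inducible ligand of CXCR3, had a UMI in 18 of 139 TSF cancer cells (12.9%, 7.86% to 19.7%) and in 11 of 29 CM cancer cells (37.9%, 20.7% to 57.7%), and the intervals did not overlap. The authors' mean for Cxcl10 was 0.258 CP10k in TSF and 1.87 CP10k in CM. Cxcl9, a second CXCR3 ligand, had a UMI in 5.04% and in 13.8%. Ccl25, the ligand of the gut-homing receptor CCR9, was seen in 28 TSF and 5 CM cells, and Flt3l, which encodes the growth factor of dendritic cells, in 22 and 4. Several ligands were seen in TSF cancer cells and in 0 of 29 CM cancer cells, which allows up to 10.3%: Rarres2 in 4 of 139, Ccl3 in 3, and Ccl4 and Cxcl12 in 2 each. Ccl21a was seen in 0 TSF cells and 1 CM cell, and Ccl19 in none of either library. The low counts were near those of markers of other cell types, which had a UMI in at most 3 TSF and 1 CM cancer cells, Sdc1 left out. These values compare 2 libraries and carry no test between treatments.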
